A study of Mus musculus with 4 samples.

Results

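The 10 immediate early genes Fos, Fosb, Fosl1, Fosl2, Jun, Junb, Egr1, Egr2, Ier2 and Ier3 were taken by symbol from a table of 47729 genes, and all 10 had 1 row each. They were followed in subcutaneous tumors grown from LLC, the Lewis lung carcinoma line of the mouse, in C57BL/6 hosts aged 6 to 10 weeks, the strain the line came from, and collected on day 5. The LLC-Chem group came from cells transfected with a pEFIN plasmid encoding chemerin (1-157), a form that needs no further clipping to be active, and the LLC group from cells labelled wild type. Each group had 2 pools of 3 tumors. Transfected cells were selected with a drug and picked as individual clones. With the LLC group labelled wild type, transfection, selection, the clone and chemerin cannot be told apart. Values are RPM, reads per 1000000 reads counted on genes, and the depth inferred from them was 28470000 to 33990000 reads per pool.

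Immediate early genes are transcribed within minutes of a growth factor, cytokine or stress signal, without new protein synthesis, and most of their transcripts decay quickly. FOS proteins pair with JUN proteins to form AP-1, a transcription factor, while the EGR proteins are zinc finger factors induced by the same signals. In tumors they are read out downstream of ERK, p38 and JNK kinases in cancer cells, vessels and leukocytes alike.

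The labels were checked first. Rarres2, which encodes chemerin, lay between 98.2 and 106 RPM in the 4 pools and was not called (log2 fold change 0.08, limma adjusted p = 0.541), so its level does not bear the labels out. Whether transcripts of the plasmid are counted on this gene is not given in the sources used here. The keratin Krt18 was at 110.0 to 139 RPM and Vim, an intermediate filament of mesenchymal cells, at 3938 to 5424 RPM. Epcam, an epithelial surface protein, was at most 0.20 RPM, and the lung factor Nkx2-1 was at 0 in all 4 pools. These are bulk samples, in which fewer cells of a type and less RNA per cell cannot be told apart.

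Of the 10 genes, Fosl2 rose and Ier2 fell in LLC-Chem tumors, and the other 8 were not called. All 10 passed the filter of a mean of 1 RPM. Over all 13694 genes tested, 9.54% were called higher, 13.5% lower and 23.0% either way by limma at an adjusted p under 0.05, so that 1 member in each direction is near the background. The median log2 fold change of the 10 genes was 0.04, against -0.04 over all genes tested. What set several of them apart from most genes was the distance between pools of the same group, described below for each family.

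**Figure D1:**
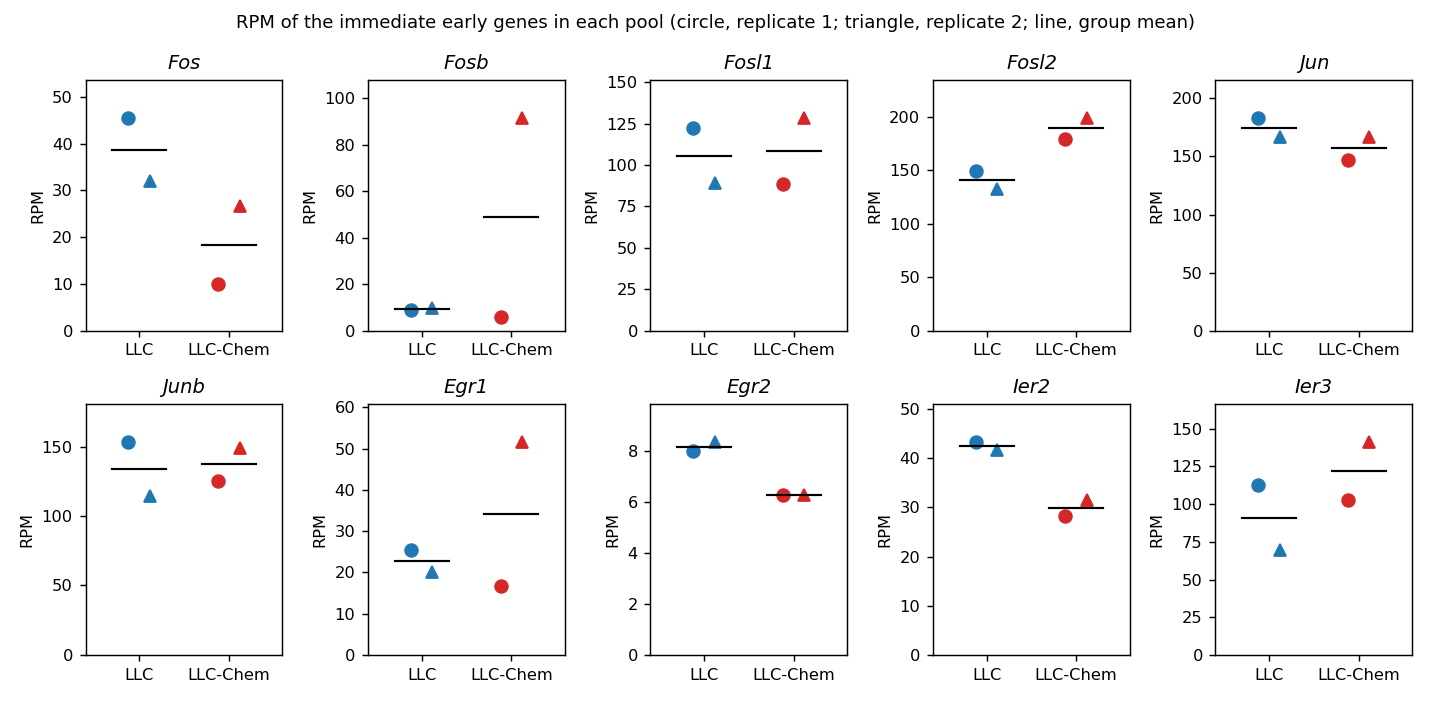
RPM of each of the 10 genes (y axes from 0) in the 2 LLC pools (blue) and the 2 LLC-Chem pools (red), with circles for replicate 1, triangles for replicate 2 and lines for group means. Fosb is at 91.4 RPM in LLC-Chem replicate 2 and at or under 9.59 RPM in the other 3 pools, whereas the groups are separate for Fosl2, Ier2, Egr2 and Fos.

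Fos (ENSMUSG00000021250, chr12:85473890-85477273 of GRCm38, plus strand) is the founding member of its family and is among the first genes to respond to serum. LLC tumors gave 45.5 and 31.98 RPM, and LLC-Chem tumors 10.04 and 26.7 RPM. Both LLC-Chem pools were thus below both LLC pools, but the LLC-Chem pools differed from each other 2.66-fold. The log2 fold change was -1.19 (standard error 0.45, 95% confidence interval -2.32 to -0.07) and did not pass the threshold (limma adjusted p = 0.107). Without LLC-Chem replicate 2 it was -1.87, and without LLC-Chem replicate 1 it was -0.51.

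Fosb (ENSMUSG00000003545, chr7:19302696-19310051, minus strand) encodes a FOS protein that also occurs as a truncated splice form, which values per gene cannot separate. Its pools were at 8.80 and 9.59 RPM in LLC tumors and at 6.00 and 91.4 RPM in LLC-Chem tumors. LLC-Chem replicate 1 was therefore the lowest of the 4 pools and LLC-Chem replicate 2 the highest, 15.2 times replicate 1. Counting error is small beside this gap, the exact Poisson intervals being 5.18 to 6.85 RPM in replicate 1 and 88.2 to 94.7 RPM in replicate 2. The group means were 9.19 ± 0.57 and 48.7 ± 60.4 RPM (SD, n = 2 each). The difference of the mean log2(RPM + 0.5) values was 1.33, with a 95% confidence interval of -1.54 to 4.21 (limma adjusted p = 0.414). edgeR's quasi-likelihood test, which models mean counts, gave a log2 fold change of 2.46 that was not called either (adjusted p = 0.165). Without LLC-Chem replicate 2 the sign turned, to -0.58.

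The sequences upstream of Fos and Fosb are shown because these genes lay farthest apart between the LLC-Chem pools within their family, and that of Fosl2 because it was the family member that was called. Each run is the 250 bases before a transcription start in the RefSeq table for GRCm38.p6, written 5′ to 3′ on the gene's own strand. Capitals mark TGACG on either strand, the core of the cyclic AMP response element bound by CREB and ATF proteins.
Fos, chr12:85473640-85473889: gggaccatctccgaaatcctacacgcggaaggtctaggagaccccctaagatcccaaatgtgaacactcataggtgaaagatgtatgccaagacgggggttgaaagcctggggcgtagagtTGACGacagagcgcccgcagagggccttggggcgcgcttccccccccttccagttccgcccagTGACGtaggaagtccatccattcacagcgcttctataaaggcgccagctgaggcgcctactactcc
Fosb, chr7:19310046-19310295: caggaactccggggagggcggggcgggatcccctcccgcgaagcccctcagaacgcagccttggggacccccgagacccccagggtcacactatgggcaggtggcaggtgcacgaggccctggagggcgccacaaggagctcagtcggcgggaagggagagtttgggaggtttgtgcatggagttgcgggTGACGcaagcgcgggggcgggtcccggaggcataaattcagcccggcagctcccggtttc
Fosl2, chr5:32136222-32136471: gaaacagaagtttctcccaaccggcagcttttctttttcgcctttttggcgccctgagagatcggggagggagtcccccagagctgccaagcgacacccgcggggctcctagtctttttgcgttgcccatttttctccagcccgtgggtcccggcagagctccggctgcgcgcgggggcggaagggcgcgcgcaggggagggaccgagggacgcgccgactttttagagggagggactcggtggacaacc
TGACG lay 129 and 66 bases before the start of Fos and 60 bases before that of Fosb, and it was not in the Fosl2 window. The motif is common, being present in 17.8% of the 32851 upstream windows of the table. A TATAAA box lay 33 bases before the start of Fos, as in 12.4% of windows on either strand, and GGGCGG was found in all 3 runs and in 32.7% of windows. Windows were available for 7 members, and TGACG was in those of 4, which were Fos, Fosb, Junb and Egr2. The full palindrome TGACGTCA, which contains TGACG on both strands, was in 0 of their 11 windows, and so was the AP-1 site TGANTCA. A CArG box, the site of serum response factor, was in 4 of the 5 Egr2 windows and in 1.47% of all windows. Of these, 3 overlap and hold the same site, so that there were 2 distinct sites. Fosl1, Egr1 and Ier2 had no window, and sites farther than 250 bases before a start were not searched for any gene.

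Fosl1 (ENSMUSG00000024912, chr19:5447547-5455946, plus strand) encodes FRA1, which is induced later than FOS and lacks its transactivation domain. LLC tumors gave 122 and 88.8 RPM, and LLC-Chem tumors 88.5 and 128 RPM. The groups overlapped almost completely, with a log2 fold change of 0.03 and a 95% confidence interval of -0.54 to 0.60 (limma adjusted p = 0.926). Among its exon bases, 57.2% also lie under Ccdc85b on the opposite strand, and whether strand was used in counting is not given in the sources used here, so its level is uncertain.

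Fosl2 (ENSMUSG00000029135, chr5:32135801-32157842, plus strand) encodes FRA2, the other late and more stable FOS protein. It rose from 149 and 133 to 179 and 199 RPM. Both LLC-Chem pools were above both LLC pools, and pools of a group differed by at most 1.12-fold. The log2 fold change was 0.42 (standard error 0.11, 95% confidence interval 0.15 to 0.70, limma adjusted p = 0.0475), or 1.34-fold. The call lies close to the threshold and was lost with a filter at a mean of 5 RPM (adjusted p = 0.0505), without a trend in the variance (adjusted p = 0.0883), with a replicate block (adjusted p = 0.107) and with no filter (adjusted p = 0.131).

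Jun and Junb, the JUN partners of AP-1, differed little between the groups, with pools that overlapped. Jun (ENSMUSG00000052684, chr4:95049034-95052222, minus strand) was at 183 and 166.8 RPM in LLC tumors and at 147 and 167.0 RPM in LLC-Chem tumors. The upper LLC-Chem pool reached the lower LLC pool, and the log2 fold change of -0.16 (95% confidence interval -0.44 to 0.12) was not called (limma adjusted p = 0.332). Junb (ENSMUSG00000052837, chr8:84974484-84978718, minus strand), which acts as a weaker activator and can oppose JUN, was at 153 and 115 RPM against 125 and 149 RPM. Its LLC-Chem pools lay inside the range of its LLC pools (log2 fold change 0.05, 95% confidence interval -0.38 to 0.47, limma adjusted p = 0.857). Reads of Junos and Prdx2, on the opposite strands, could fall on 7.3% of the exon bases of Jun and 7.5% of those of Junb.

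Divided by exon length, the levels of the families can be set side by side. In LLC tumors Ier3 stood at 61.7 and 99.4 RPM per kb, Junb at 49.8 and 66.5, Jun at 52.3 and 57.4 and Fosl1 at 43.7 and 60.1, and the ranges of neighbours in this order overlap. The place of Fosl1 is uncertain, since 57.2% of its exon bases are shared with Ccdc85b. Ier2 followed at 27.3 and 28.4 RPM per kb, then Fos at 13.6 and 19.4 and Fosl2 at 13.7 and 15.4, which overlap each other. The lowest were Egr1 at 4.46 and 5.65 RPM per kb, Egr2 at 2.35 and 2.46 and Fosb at 1.41 and 1.54, with no overlap among them. In LLC-Chem tumors Fosl2 was at 18.5 and 20.6 RPM per kb and lay above Fos, at 4.27 and 11.3, in both pools. Fosb reached 14.6 RPM per kb in LLC-Chem replicate 2, above Fos and Egr1 in that pool, and 0.96 in replicate 1, the lowest of the 10 genes.

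The make-up of the FOS family was computed from the same values. Fosl1 held 57.6% to 64.7% of the family's summed RPM per kb in all 4 pools. Its level is uncertain because of the bases shared with Ccdc85b, and so are every share in this family and the summed level. The share of Fos was 20.1% and 18.7% in the LLC pools and 6.3% and 10.3% in the LLC-Chem pools. That of Fosl2 was at most 18.9% in the LLC pools, 27.6% in LLC-Chem replicate 1 and 18.7% in LLC-Chem replicate 2. Fosb made up 1.4% to 2.1% in 3 pools and 13.3% in LLC-Chem replicate 2. The summed level was 96.3 and 72.6 RPM per kb in LLC and 67.3 and 109.7 in LLC-Chem tumors, so that the groups overlapped. Jun held 44.7% to 51.2% of the Jun and Junb sum in all pools.

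**Figure D2:**
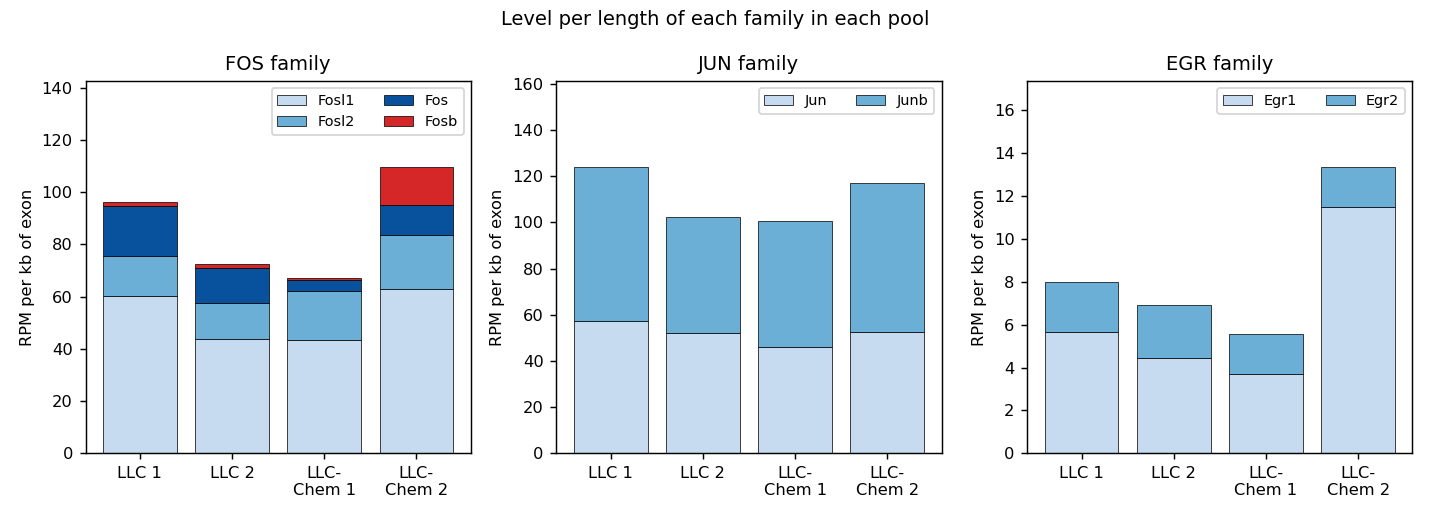
Stacked RPM per kb of exon (y axes from 0) for the FOS, JUN and EGR genes in each of the 4 pools. The level of Fosl1, and so the height of the FOS bars, is uncertain because of exon bases shared with Ccdc85b. The Fosb segment (red) is 14.6 RPM per kb in LLC-Chem replicate 2 and at most 1.54 elsewhere, and Egr1 is 11.5 RPM per kb in that pool against at most 5.65 elsewhere.

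Egr1 (ENSMUSG00000038418, chr18:34859823-34864984, plus strand), a factor induced by growth factors and by hypoxia, was at 25.3 and 20.0 RPM in LLC tumors and at 16.7 and 51.5 RPM in LLC-Chem tumors. As with Fosb, the 2 LLC-Chem pools enclosed both LLC pools, and replicate 2 was 3.09 times replicate 1. The log2 fold change was 0.38 with a 95% confidence interval of -0.87 to 1.63 (limma adjusted p = 0.594), and it was -0.42 without LLC-Chem replicate 2. Egr2 (ENSMUSG00000037868, chr10:67535475-67542188, plus strand), its relative in nerve and lymphoid development, behaved differently. LLC tumors gave 7.996 and 8.35 RPM, and both LLC-Chem pools 6.30 RPM. The pools of the groups did not overlap, and the exact Poisson intervals overlapped in part. That of LLC replicate 1, 7.01 to 9.04 RPM, reached into those of the LLC-Chem pools, which ended at 7.198 and 7.204 RPM, while that of LLC replicate 2, 7.30 to 9.45 RPM, lay above both. The log2 fold change of -0.35 (95% confidence interval -0.76 to 0.06) was not called (limma adjusted p = 0.165, 0.226 from edgeR's quasi-likelihood test).

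Ier2 (ENSMUSG00000053560, chr8:84661331-84662852, minus strand), a nuclear protein, fell from 43.2 and 41.6 to 28.3 and 31.6 RPM. The groups were well apart, and the means of 42.4 ± 1.17 and 29.96 ± 2.30 RPM (SD, n = 2 each) gave a log2 fold change of -0.50 (standard error 0.12, 95% confidence interval -0.79 to -0.21, limma adjusted p = 0.0371). The call was kept by edgeR's quasi-likelihood test on the recovered reads (adjusted p = 0.0459) and lost without a trend in the variance (adjusted p = 0.06), with a replicate block (adjusted p = 0.0843) and with no filter (adjusted p = 0.111). Ier3 (ENSMUSG00000003541, chr17:35821684-35822923, plus strand), a regulator of cell survival downstream of NF-κB and ERK, was at 112 and 69.8 RPM in LLC tumors and at 103 and 141 RPM in LLC-Chem tumors. The groups overlapped, and the log2 fold change of 0.44 (95% confidence interval -0.21 to 1.09) was not called (limma adjusted p = 0.251). It was 0.78 without LLC replicate 1 and 0.098 without LLC replicate 2.

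The spread within groups was then set against the difference between them. The SD between pools of a group, on log2(RPM + 0.5), was 1.91 for Fosb, 0.82 for Egr1 and 0.73 for Fos, larger than in 99.96%, 99.0% and 98.5% of the genes tested. Ier3, Fosl1 and Junb followed with 0.41, 0.35 and 0.24. Fosl2, Jun and Ier2, at 0.11, 0.11 and 0.08, and Egr2, at 0.03, lay below the median of all genes tested, 0.14. Related lists described below were spread as widely. The median SD was 0.30 for the 10 genes, 0.30 for other immediate early genes and 0.33 for targets of AP-1 or EGR1. For 6 of the 10 genes the group difference exceeded this SD, as it did for 78.2% of all genes tested. It was 6.06 times the SD for Ier2, 3.85 times for Fosl2, 1.64 times for Fos, 1.38 times for Jun and 1.07 times for Ier3. The ratio for Egr2 is not given, since its 211 to 246 reads per pool leave a counting error larger than its SD. Pools of the groups did not overlap for 1 gene that was higher (Fosl2) and 3 that were lower (Fos, Egr2 and Ier2), against 33.1% and 39.3% of all genes tested. That is 4 of 10 in either direction, against 72.5%. With 2 pools against 2, an exact permutation test of a value cannot go below p = 0.33 (two-sided).

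**Figure D3:**
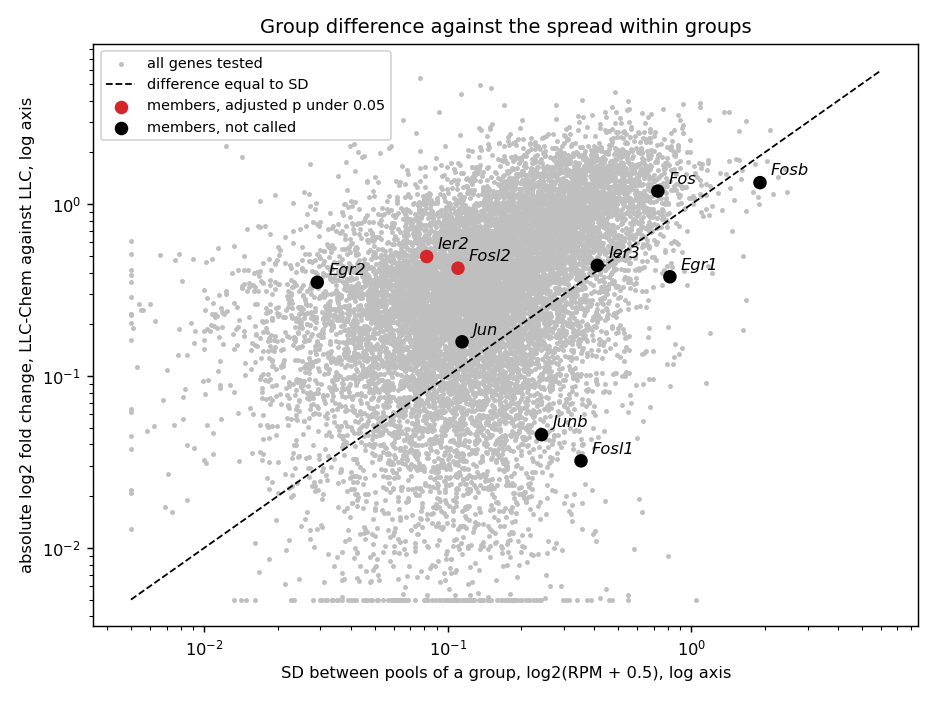
Absolute log2 fold change (y axis, log scale) against the SD between pools of a group (x axis, log scale, both on log2(RPM + 0.5)) for all 13694 genes tested (grey) and the 10 genes (black, or red where called). Values under 0.005 are drawn at 0.005. Ier2 and Fosl2 lie far above the dashed line of equality, as does Egr2, whose SD is below its counting error, while Fosb, Egr1, Junb and Fosl1 lie below it.

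The direction of the spread was shared among the 10 genes. In the LLC-Chem group 9 of 10 were higher in replicate 2 and Egr2 was tied, while 47.3% of all genes tested were higher there. A log2 difference of at least 1 in this direction was found for 3 of the 10 genes, Fosb, Egr1 and Fos, against 0.117% of all genes tested. As large a difference the other way was found for 189 of all genes tested and for none of the 10. In the LLC group 8 of 10 were higher in replicate 1, against 57.9% of all genes tested, and none of the 10 differed by 1 on the log2 scale, as 2.77% of all genes did either way, Ier3 being farthest apart at 0.68. The 10 genes are induced by common signals and are not independent of each other, so these counts carry no test.

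**Figure D4:**
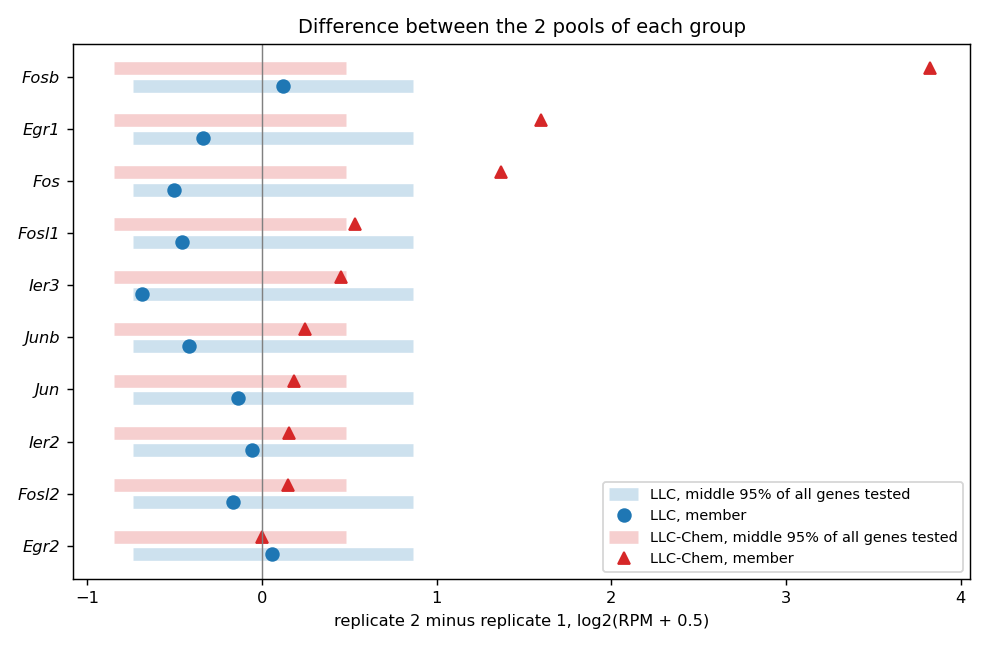
Difference of replicate 2 minus replicate 1 on log2(RPM + 0.5) for each of the 10 genes in LLC (blue circles) and LLC-Chem tumors (red triangles), with bands for the middle 95% of all genes tested. Fosb (3.82), Egr1 (1.597) and Fos (1.37) lie far to the right of the LLC-Chem band, which ends at 0.48, Fosl1 (0.53) lies just outside it, and the 10 LLC values stay within theirs.

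Only 16 of the 13694 genes tested were higher by at least 1 on the log2 scale in LLC-Chem replicate 2 than in replicate 1, while 189 were lower by as much. The names of the 16 were looked up after the values were seen. Fosb held rank 1, Egr1 rank 4 and Fos rank 6. Another 2, Tnfaip3 and Nfkbia, which encode feedback inhibitors of NF-κB, stood on a list of 45 other immediate early genes. Tnfaip3 went from 26.2 RPM in replicate 1 to 90.7 RPM in replicate 2, with LLC pools at 40.0 and 28.5 RPM. Nfkbia was at 176 and 435 RPM, with LLC pools at 179 and 144 RPM. The remaining 11 included the chemokine genes Cxcl1, Cxcl5 and Ccl2, the interferon regulatory factor Irf1 and the NF-κB cofactor Nfkbiz. Cxcl1 measured 77.9 and 448 RPM in LLC-Chem tumors, beside 56.9 and 15.04 RPM in LLC tumors.

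Other values differed between the LLC-Chem pools as well. The summed level of 3 erythroid markers was 115.6 RPM in replicate 1 and 3.55 RPM in replicate 2, against 90.4 and 35.8 RPM in the LLC pools. The 19 leukocyte marker identifiers summed to 811 and 437 RPM in these pools, beside 1367 and 1614 RPM for LLC tumors, and for 16 of 19 the LLC-Chem pools were the lower pair. The 6 endothelial markers summed to 50.4 and 27.3 RPM, and to 217 and 149 RPM in the LLC pools. Their part in the values of the 10 genes was not tested. Among 10 heat shock and chaperone genes that respond to handling, 4 were higher in LLC-Chem replicate 2 (40.0%, against 47.3% of all genes tested), by less than 1 on the log2 scale, and 1 was tied. Hspa1a, an inducible HSP70 gene whose reads its near-identical copy Hspa1b can share, was at 3.50 and 1.55 RPM there and at 3.70 RPM in both LLC pools. Hspa1b was at 11.8 RPM in both LLC-Chem pools and at 8.80 and 9.24 RPM in LLC tumors. Of the 10, 1 was called, whereas 23.0% of all genes tested were. This was Hsp90aa1, a cytosolic HSP90 gene, which fell from 641 and 509 to 345 and 302 RPM (limma adjusted p = 0.0246).

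Genes whose pattern over the 4 pools was nearest to that of 4 of the members were found by the Euclidean distance between centred log2(RPM + 0.5) values. For Egr1 they were Tnfaip3 (distance 0.22), Irf1 (0.29) and Wnt2b (0.39), beside a range of 1.597 for Egr1 itself. For Fos the distances were larger, 0.44 for Ltbp2, 0.57 for Has2 and 0.57 for Oas2, beside a range of 2.13. Fosl1 was matched most closely by Mgst2 (0.06), Il18rap (0.07) and Tmem74 (0.08), and Ier3 by Gm2000 (0.07), Ccbe1 (0.10) and Stard6 (0.10). Fosb was added after its values were seen, and had no near match. Tnfaip3 came closest at a distance of 1.71, beside a range of 3.82 for Fosb.

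The 10 genes were next read beside lists of genes from the same pathway. Of 42 other immediate early genes tested out of 45, 3 rose and 7 fell, with a median log2 fold change of -0.21. The share called, 23.8%, is near the 23.0% of all genes tested. Sik1, a kinase induced by cyclic AMP, rose from 23.9 and 25.3 to 73.0 and 145 RPM (log2 fold change 2.04, limma adjusted p = 0.017), and the clock gene Per1 and the repressor Bhlhe40 rose by 0.88 and 0.75 on the log2 scale. Ctgf, a matricellular protein, fell from 10.6 and 7.65 to 3.55 and 1.499 RPM (log2 fold change -1.74, limma adjusted p = 0.032). The antiproliferative gene Btg2 fell by 1.32, the stress sensor Gadd45g by 1.08, the kinase Pim1 by 0.83 and the stress factor Atf3 by 0.80 on the log2 scale. Dusp1, a phosphatase that turns off MAP kinases, and the survival gene Mcl1 fell by 0.67 and 0.49. As among the 10 genes, 76.2% of this list were higher in LLC-Chem replicate 2 than in replicate 1.

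Upstream of the 10 genes, 1 of 20 kinases and factors passed the test, or 5.0% against 23.0% of all genes tested. Braf, the kinase above MEK and ERK, showed a log2 fold change of 0.60 (limma adjusted p = 0.035) and rose. Srf, the factor that binds CArG boxes, was at 92.6 and 83.5 RPM in LLC and 76.5 and 81.0 RPM in LLC-Chem tumors, with no overlap, and did not pass the test (limma adjusted p = 0.293). Among 13 genes that report or restrain ERK signalling, 4 rose (30.8%, against 9.54% of all genes tested) and 3 fell (23.1%, against 13.5%). The receptor kinase inhibitors Spry1 and Spry2 rose by 2.02 and 1.36, the ETS factor Etv1 by 1.45 and Spred2 by 0.45 on the log2 scale, whereas the ERK phosphatases Dusp5 and Dusp4 fell by 1.41 and 1.04 and Etv4 by 1.22. Spry1 itself was at 5.20 and 5.10 RPM in LLC and at 23.1 and 21.8 RPM in LLC-Chem tumors (limma adjusted p = 0.007).

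Of 15 partners of AP-1 and co-repressors of EGR proteins, 2 rose (13.3%, against 9.54% of all genes tested) and 5 fell (33.3%, against 13.5%). Nab2, which binds and represses EGR1, rose from 41.3 and 44.7 to 60.9 and 56.8 RPM (log2 fold change 0.45, limma adjusted p = 0.039), and Atf7 rose by 0.76. Those that fell included Batf, Batf2, Maf and Jdp2, a repressor that pairs with JUN, with log2 fold changes of -1.22, -1.13, -1.09 and -1.07. Batf and Maf are also expressed by leukocytes, whose markers were lower in the same pools, and that part was not tested. Jund, the remaining JUN gene, was at 89.4 and 110.1 RPM against 107 and 92.6 RPM (limma adjusted p = 0.991).

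Among 26 genes known as targets of AP-1 or EGR1, 10 fell (38.5%, against 13.5% of all genes tested) and 1 rose (3.8%, against 9.54%). The median log2 fold change was -0.66, against -0.04 over all genes tested. Mmp9, a gelatinase that neutrophils and macrophages also make, fell from 89.1 and 112 to 19.9 and 15.2 RPM (log2 fold change -2.49, limma adjusted p = 0.007). Pdgfb, Mmp13, Timp1, Areg, Ccnd1, Hbegf, Plaur and Plau fell by 0.65 to 1.92 on the log2 scale. Mmp14, a membrane-bound collagenase, rose from 674 and 799 to 1233 and 1157 RPM (log2 fold change 0.70, limma adjusted p = 0.031). All 6 endothelial markers, 3 of 4 neutrophil, 3 of 4 mural and 4 of 6 tested macrophage and monocyte markers were also called lower. Of 5 fibroblast markers 2 were called lower and 1 higher, and of 3 tested adipocyte markers 1 was called higher. The part of these cell types in the list's values was not tested. Ccl2 was the gene of this list with the largest difference between LLC-Chem pools in the direction of Fosb, at 366 and 829 RPM. Of the 26 genes, 9 were higher in LLC-Chem replicate 2 (34.6%, against 47.3% of all genes tested), and 3 were lower there by at least 1 on the log2 scale.

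**Figure D5:**
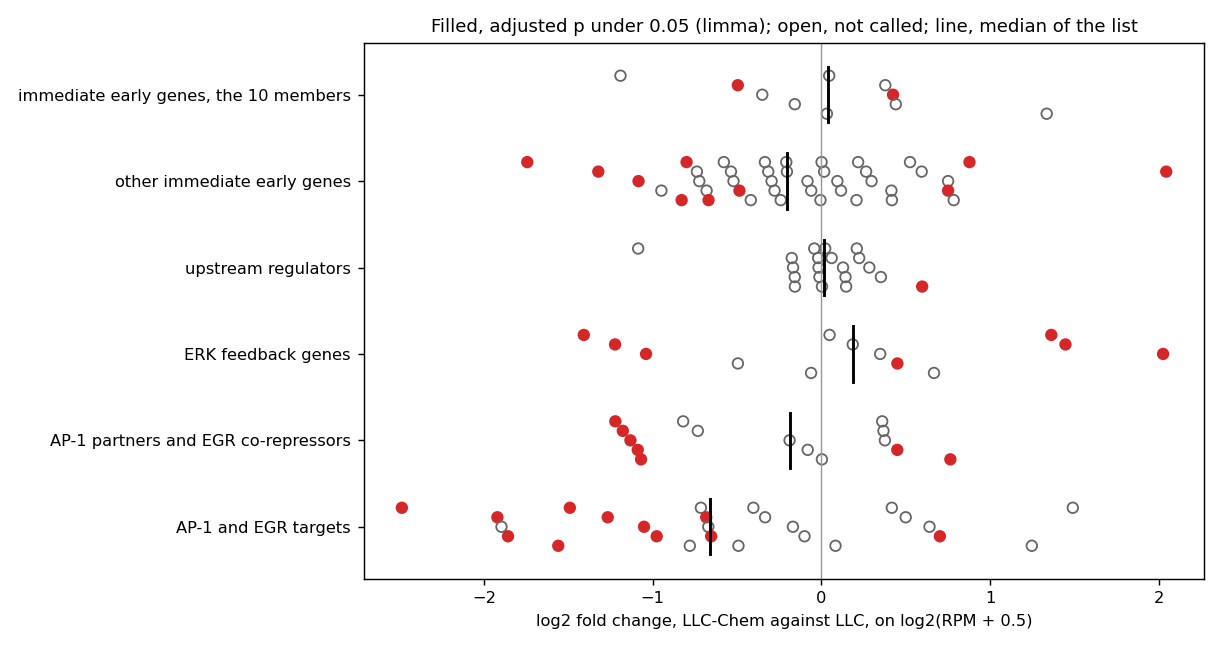
Log2 fold change between LLC-Chem and LLC tumors for every tested gene of 6 lists (x axis, on log2(RPM + 0.5)), filled where called by limma, with a line at each list's median. The 10 genes centre at 0.04 with 2 filled points, and the targets of AP-1 and EGR1 centre at -0.66 with 11.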

How the data were processed

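RNA-seq was made by the study from pools of 3 tumors, with 2 pools per group. Paired-end reads were aligned by the authors with STAR to GRCm38.p4 (mm10), counted on genes of Ensembl release 84 with HTSeq and deposited as RPM. Versions and the use of strand are not given in the sources used here. Deposited RPM are whole steps of 0.04997 RPM, and 100% of nonzero values were whole within 0.02 steps. Library totals of 28470000 to 33990000 reads were fitted from the histogram of the steps, taken as scaled to 20000000 reads and rounded up, and reads were recovered to about 1 read given that total. The smallest amount taken as shown, 3 reads, is 0.088 to 0.105 RPM, for counting error only. Pools of a group were not repeats of 1 library (chi-square of reads per gene, 75.8 in LLC and 30.9 in LLC-Chem tumors).

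The test was limma 3.58.1 (R 4.3.3; two-sided, moderated variance with a trend) on log2(RPM + 0.5) of 13694 genes whose mean reached 1 RPM, with Benjamini-Hochberg adjustment and calls at 0.05, so that changes of low genes are understated. The scripts were tested on simulated data. P-values measure the spread between pools. Alternatives were pseudocounts of 0.1 and 1, TMM and median-of-ratios scaling, other filters, eBayes without a trend, a replicate block, leaving out each pool, and edgeR 4.0.16 and DESeq2 1.42.0 on recovered reads. The crossed pairing was added after the data were seen. The members and gene lists were chosen with earlier results of these data known. Genes named are the members, genes of the lists (called ones by size, then abundant ones) and the 3 nearest patterns for 4 members. The 16 genes with the largest rise from LLC-Chem replicate 1 to replicate 2, Fosb's nearest genes and the label check genes were chosen after values were seen. Gene coordinates and exon lengths are from GENCODE M21 on GRCm38, and promoter sequences from RefSeq. Values of 2 genes of the lists are not reported here, although the lists' counts include them.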

Additional observations from a re-analysis of the deposited data

How the results depend on the processing

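Under the 11 other settings that used all 4 pools, and with the crossed pairing, each of the 10 members kept its direction. At an adjusted p under 0.05 from limma, 2 members were called. The count was 1 with a filter at a mean of 5 RPM, and 0 with no filter, without a trend and with the replicate block, where 3 had an unadjusted p under 0.05 in each case. edgeR (both tests) and DESeq2 called 2. With no filter limma called 1 of all genes and 0 in every pathway list, with 7397 genes at an unadjusted p under 0.05, against 3154 calls in the fit reported. Without a trend, limma called 2162 of all 13694 genes, and calls numbered 4 among ERK feedback genes, 6 among AP-1 and EGR targets and 0 among upstream regulators, where 2 had an unadjusted p under 0.05. edgeR's likelihood ratio test called 17 AP-1 and EGR targets and 2 upstream regulators, with 4304 of all genes, and DESeq2 called 2 upstream regulators, with 4147 of all genes. The cause of these changes was not tested.

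The groups share replicate numbers, but the correlation between same-numbered pools, after centring each group, was -0.1405 over the genes tested, and the numbers were not taken to pair the pools. With the replicate block limma called 1613 genes in all, 0 members (adjusted p = 0.107 for Fosl2 and 0.0843 for Ier2) and 0 upstream regulators. With the crossed pairing it called 3899 genes in all, 4 members, 2 upstream regulators and 12 AP-1 partners and EGR co-repressors. The 4 members were Fosl2, Ier2, Fos (limma adjusted p = 0.0227) and Ier3 (limma adjusted p = 0.0357). The blocked fit keeps 1 residual degree of freedom.

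Leaving out any pool left 0 calls by limma among the members, each list and all genes, with 2578 to 4973 genes at an unadjusted p under 0.05. The lone pool was assumed to vary like the other group, and with 3 pools this says nothing about stability. The log2 fold change without 1 pool ran from -0.58 to 3.25 for Fosb, -0.42 to 1.177 for Egr1, -0.24 to 0.30 for Fosl1 and -0.16 to 0.25 for Junb. Fosb and Egr1 turned negative only without LLC-Chem replicate 2, and Fosl1 and Junb without that pool or LLC replicate 2. The range was 0.34 to 0.51 for Fosl2, -0.57 to -0.42 for Ier2, 0.098 to 0.78 for Ier3, -1.87 to -0.51 for Fos, -0.25 to -0.066 for Jun and -0.38 to -0.32 for Egr2. For Egr2, with 211 to 246 reads per pool, the Poisson interval of LLC replicate 1 overlaps those of the LLC-Chem pools and that of LLC replicate 2 does not.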
